A study of Mus musculus with 5 samples.

Results

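A set of 10 imprinted growth genes (H19, Igf2, Igf2r, Grb10, Cdkn1c, Plagl1, Mest, Peg3, Dlk1 and Meg3) was followed in the luminal layer of the wild-type mouse uterus around embryo attachment. They were found by gene symbol among the 23420 genes of the table. The set was chosen from values measured in these same libraries, so its levels and differences are given as a description and not as a test. RNA-seq was available for 5 libraries of C57BL/6N wild-type uteri, 1 per condition. They were taken on day 3 morning, day 4 morning and day 4 evening of pregnancy, before attachment, and on day 5 morning after it, where 1 library came from the layer away from the attached embryo (M pole) and 1 from the layer surrounding it (AM pole). No gene deletion or treatment was present in any of the 5, and neither the age of the mice nor the number of animals behind each library is given in the sources used here. Since each condition has 1 library, differences between conditions could not be set against replicates, and no p-value is given.

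In genomic imprinting, only the allele inherited from 1 parent is transcribed, because DNA methylation set in the germ line marks a control region nearby. The genes studied here sit in several such domains and are known mainly for fetal and placental growth. Paternally expressed genes such as Igf2, Mest, Peg3, Plagl1 and Dlk1 mostly favour growth, while maternally expressed genes such as H19, Igf2r, Cdkn1c and Grb10 mostly restrain it. The libraries come from 1 inbred strain and the values are counts per gene, so the parental allele behind a count was not measured.

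The luminal layer is a single epithelium, and all 7 of the markers followed (Krt8, Krt18, Krt19, Epcam, Cdh1, Cldn3 and Cldn4) were counted in every library, with a summed level between 4207 and 6414 CPM. CPM is counts per 1e+06 after TMM scaling of the library. Genes of other cells were counted as well. All 12 stromal markers exceeded 3 counts in every library, with sums of 438 to 606 CPM. The 6 smooth muscle markers summed to between 10.9 and 31.8 CPM in 4 libraries and to 395 CPM around the embryo. Des was the largest of them, and without it the sums were 2.62 to 12.1 CPM and 41.1 CPM. Endothelial markers summed to 13.2 to 45.7 CPM in those 4 libraries and to 96.2 CPM around the embryo, but without Cdh5 the sum was 38.6 CPM away and 24.8 CPM around. The 5 immune markers in the table summed to 237 to 938 CPM in the 4 libraries and to 99.5 CPM around the embryo, but without Cd14 to 31.4 to 38.5 CPM and 45.1 CPM. The 4 gland markers in the table summed to at most 8.07 CPM in any library. The library around the embryo stood apart in 1 more respect: it was the only library in which none of the 12 embryo markers was at 0. Pou5f1, Nanog, Cdx2, Rhox5 and Zfp42 had 68, 10, 22, 119 and 246 counts in it, and 0 counts in each of the other 4 libraries. Leaving out Sox17, which reached 762 to 2277 CPM in every library and is also made by uterine epithelium, the embryo markers summed to 134 CPM around the embryo and to between 5.41 and 13.6 CPM elsewhere. Every comparison with this library below carries that difference, and its part in the results was not tested. In bulk tissue, fewer cells of a type and less RNA per cell cannot be told apart.

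Library totals ranged from 15334674 to 19529491 counts, spread over 15274 to 15888 genes with any count. A floor of 3 counts corresponded to between 0.161 and 0.190 CPM. Each change is a difference in log2 CPM (prior count 2), computed where the mean over the 5 libraries reached 1 CPM. That filter kept 12915 of the 23420 genes and 7 of the 10 imprinted growth genes. Dlk1, Meg3 and Peg3 did not pass it. Igf2 passed only through its level around the embryo: without that library it fell under the filter. A gene was called when this log2 change lay beyond 1 in either direction. Folds are ratios of CPM with no prior count, so for genes of few counts a fold is larger than the log2 change beside it. Brackets give the 95% Clopper-Pearson interval of that ratio on the log2 scale, which covers counting error only and can lie off-centre from the log2 change.

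Sequences are shown for the members on which the results turn, beginning with the small RNAs encoded inside H19. H19 is a long noncoding RNA that is also the precursor of miR-675, and both mature arms lie in a counted exon, so reads from an unprocessed precursor would count towards H19. Mature miRNAs were not measured here. The arms were taken from RefSeq (GRCm38.p6, minus strand), at chr7:142577112-142577133 for the 5p arm and chr7:142577078-142577099 for the 3p arm. Capitals mark the seed, bases 2 to 8 from the 5′ end, and the arms have different seeds.
mmu-miR-675-5p: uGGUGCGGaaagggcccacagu
mmu-miR-675-3p: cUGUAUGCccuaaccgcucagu

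RefSeq promoter windows, 250 bases before and 50 bases after a transcription start, were at hand for 8 of the 10 members, in 15 windows. None was at hand for H19 or Cdkn1c. The windows of Igf2, Igf2r and Plagl1 are shown because these 3 genes differed between the day 5 libraries. Capitals mark CpG dinucleotides, the bases at which DNA methylation is set. Whether imprinting acts through these windows was not tested. The Igf2 window with the most CpG is at chr7:142658755-142659054, the Igf2r window at chr17:12769657-12769956 (both on the minus strand) and the Plagl1 window at chr10:13090582-13090881 (plus strand), all on GRCm38.p6.
Igf2: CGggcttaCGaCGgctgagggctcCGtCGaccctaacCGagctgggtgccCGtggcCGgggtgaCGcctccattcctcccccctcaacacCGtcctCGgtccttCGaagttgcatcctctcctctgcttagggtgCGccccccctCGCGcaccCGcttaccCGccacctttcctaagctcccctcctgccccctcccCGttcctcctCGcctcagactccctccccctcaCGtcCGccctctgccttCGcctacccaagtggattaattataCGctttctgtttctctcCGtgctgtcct
Igf2r: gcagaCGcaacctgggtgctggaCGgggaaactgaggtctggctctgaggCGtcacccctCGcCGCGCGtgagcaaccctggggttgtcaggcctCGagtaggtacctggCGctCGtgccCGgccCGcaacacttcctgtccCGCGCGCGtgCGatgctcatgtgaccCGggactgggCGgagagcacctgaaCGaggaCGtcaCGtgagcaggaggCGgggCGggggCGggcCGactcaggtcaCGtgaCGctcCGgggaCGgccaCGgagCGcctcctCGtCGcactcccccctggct
Plagl1: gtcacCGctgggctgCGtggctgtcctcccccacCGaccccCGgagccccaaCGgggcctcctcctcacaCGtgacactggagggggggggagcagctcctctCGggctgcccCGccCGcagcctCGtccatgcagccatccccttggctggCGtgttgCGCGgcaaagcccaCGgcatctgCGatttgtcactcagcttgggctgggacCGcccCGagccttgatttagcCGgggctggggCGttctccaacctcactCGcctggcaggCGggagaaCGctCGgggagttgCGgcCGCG

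These windows hold 24, 34 and 26 CpG for Igf2, Igf2r and Plagl1, against a median of 7 over all 32851 windows of the same length. The highest number among the members was 45, in 1 of the 2 Grb10 windows, more than in 98.1% of all windows. The other 3 Igf2 windows held 2, 7 and 14 CpG, and the single Dlk1 window 9. Plagl1 is a zinc finger protein known to bind GGGGCCCC, a palindrome that reads the same on both strands. It occurred in 1 of the 15 windows, that of Peg3, and in 1.08% of all windows. The Stat motif TTCNNNGAA, searched on both strands because Lif signals through Stat3, occurred in none of the 15 and in 8.30% of all. Methylation and binding were not measured in these libraries.

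**Figure D1:**
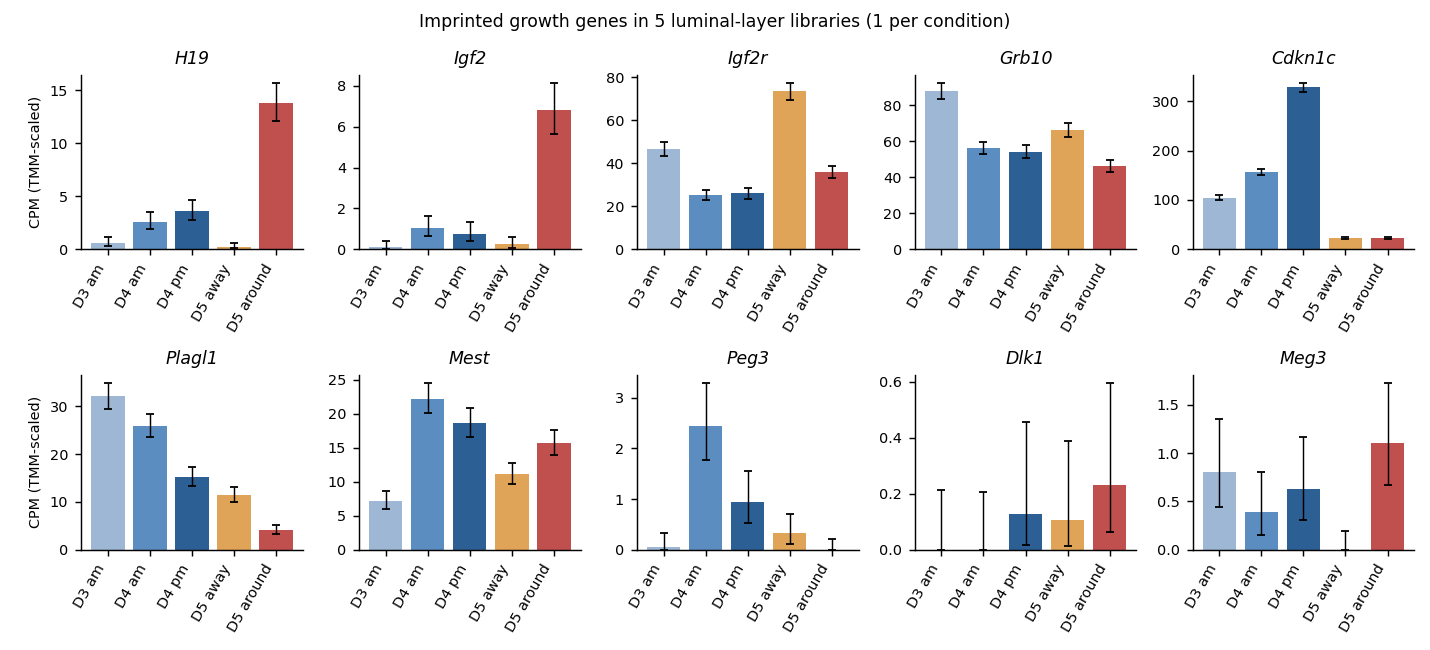
Level of each of the 10 imprinted growth genes in the 5 libraries. The y axes are TMM-scaled CPM, each panel with its own scale from 0; bars are single libraries and error bars are 95% Poisson intervals of the count, which cover counting error only. H19 and Igf2 are highest around the embryo, Cdkn1c is highest on day 4 evening, and Plagl1 is lower at each step.

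The paternally expressed growth factor Igf2 and the noncoding H19 share 1 imprinted domain on distal chromosome 7, where the counted Igf2 gene (chr7:142650768-142661035) lies 72621 bases from H19 (chr7:142575532-142578146). H19 had 11, 47 and 57 counts on day 3 morning, day 4 morning and day 4 evening, then 5 away from the embryo and 238 around it. Igf2 had 2, 19, 12, 5 and 117 counts in the same order. Both were thus lowest on day 3 or away from the embryo and highest around it, and both were low in absolute terms outside that library.

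The levels of H19 were 0.633, 2.62 and 3.60 CPM before attachment, 0.268 CPM away from the embryo and 13.8 CPM around it. In CPM, H19 was 51.6-fold higher around the embryo than away from it, where it had 5 counts, and with the prior count the log2 change was 5.19 [4.45, 7.32]. Against day 4 evening, it was 13.4-fold lower away from the embryo (log2 change -3.28 [-5.43, -2.44]) and 3.84-fold higher around it (1.91 [1.52, 2.38]). Between day 3 and day 4 morning it was already 4.13-fold higher (1.87 [1.08, 3.14]), while the step to day 4 evening was small, at 0.44 [-0.12, 1.05], and its interval contained 0.

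Igf2 lay at 0.115, 1.06, 0.758, 0.268 and 6.79 CPM. Around the embryo it was 25.3-fold higher than away from it (log2 change 4.17 [3.40, 6.31]) and 8.96-fold higher than on day 4 evening (2.98 [2.30, 4.16]). The lower level away from the embryo than on day 4 evening, -1.19 [-3.36, 0.11], rested on 12 and 5 counts. Its interval contained 0, so this difference was not detectable at this depth. Of Igf2's exon bases, 2.31% overlap the antisense gene Igf2as, which had 5 counts around the embryo and 0 elsewhere.

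Per length, the H19 level was above that of Igf2 in every library, although away from the embryo the interval of the ratio included 1. The ratio of their RPKM (CPM per kilobase of the deposited gene length) was 8.91 [1.94, 82.7], 4.01 [2.31, 7.23] and 7.69 [4.08, 15.8] before attachment, and 1.62 [0.373, 7.04] away and 3.30 [2.63, 4.15] around the embryo on day 5. All 5 intervals overlapped, with the highest lower bound (4.08) on day 4 evening and the lowest upper bound (4.15) around the embryo. Ins2, the next gene after Igf2 along the chromosome, had 0 counts in all 5 libraries.

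The embryo markers moved with H19 and Igf2 across the day 5 libraries, as the plot of both by library shows. Eomes had 26 counts away from the embryo and 609 around it, Elf5 had 10 and 317, and Dppa3 had 1 and 113. Stromal markers differed in both directions: Hand2 had 389 counts away and 2282 around, whereas Col3a1 had 2640 and 729. The smooth muscle gene Des had 369 and 6090. What part of the H19 and Igf2 counts came from embryonic or stromal cells was not tested. Eomes and Elf5 were also counted on days 3 and 4, with 23 to 62 and 49 to 148 counts.

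**Figure D2:**
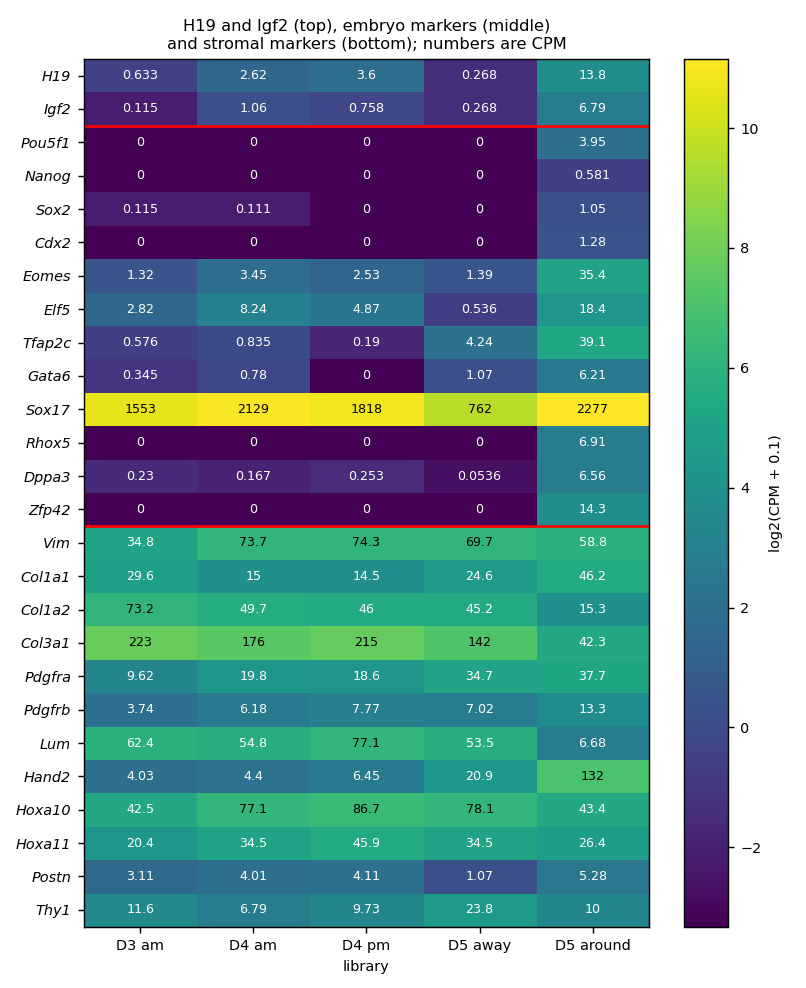
H19 and Igf2 with the embryo markers and the stromal markers in the 5 libraries. Colour is log2(CPM + 0.1) and the printed numbers are CPM; each column is 1 library. H19 and Igf2 reach 13.8 and 6.79 CPM around the embryo, the library in which Pou5f1, Nanog, Cdx2, Rhox5 and Zfp42 are counted.

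Igf2r and Grb10 act on the Igf2 signal at the cell. Igf2r, the cation-independent mannose 6-phosphate receptor, binds Igf2 and carries it to lysosomes, and Grb10 is an adaptor that dampens the insulin and Igf1 receptors. Igf2r (chr17:12682406-12769706) had 811, 455, 411, 1368 and 620 counts, in the order of the libraries above. Its level away from the embryo, 73.3 CPM, was the highest of the 5, and both day 4 levels were the lowest, at 25.3 and 26.0 CPM.

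Igf2r was 2.82-fold higher away from the embryo than on day 4 evening (log2 change 1.49 [1.34, 1.66]) and only 1.39-fold higher around it (0.47 [0.29, 0.65]). It was thus 2.04-fold lower around the embryo than away from it, at -1.02 [-1.17, -0.89]. That call lay close to the threshold and was lost with DESeq2 size factors. With scaling by library totals, the change from day 3 morning to day 4 morning moved from -0.88 [-1.05, -0.71] to -1.18 and so became a call. Igf2r and Igf2 therefore had their highest levels at opposite day 5 sites.

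In the 500 kb to either side of Igf2r lie 26 genes, and 10 were kept. From day 4 evening to day 5 away from the embryo, 2 of the 10 were called higher and none lower. Of all genes, 12.9% were higher and 12.7% lower in this comparison. The 2 neighbours were Acat2 and Acat3, cytosolic acetyl-CoA acetyltransferase genes that were named after their values were seen. On day 4 evening and at the day 5 sites away and around, Acat2 had 377, 1695 and 611 counts, and Acat3 had 4, 218 and 48. They are near copies of each other, so their counts are uncertain. Acat3 passed the filter only through the library away from the embryo, so the filter favoured its call. Airn, the paternal antisense RNA that silences Igf2r on the paternal chromosome, had 48, 29, 35, 73 and 28 counts and was within 2-fold of day 4 evening in both day 5 libraries (log2 change 0.79 away and -0.42 around). Airn starts inside Igf2r, but the counted exons of the genes share no bases.

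Grb10 (chr11:11930499-12037420) was the steadiest member, with 1527, 1010, 859, 1234 and 797 counts. Its levels were 87.9, 56.2, 54.3, 66.2 and 46.3 CPM, and none of its 5 changes passed 2-fold. The lowest was -0.64 [-0.76, -0.53] from day 3 to day 4 morning. Between the day 5 sites the change was -0.51 [-0.65, -0.39], in the same direction as that of Igf2r.

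Cdkn1c encodes p57, an inhibitor of cyclin-dependent kinases that holds cells out of the cycle. It is a maternally expressed gene of the same distal chromosome 7 cluster (chr7:143458339-143461050), 797303 bases from Igf2 in a separately controlled domain. It had 1808, 2809 and 5187 counts in the 3 libraries before attachment, then 430 away from the embryo and 402 around it. Every pre-attachment library was higher than both day 5 libraries, and the day 5 libraries were nearly equal.

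In CPM, Cdkn1c went from 104 through 156 to 328 on day 4 evening, and stood at 23.1 and 23.3 at the day 5 sites away and around. The step from day 4 morning to evening was 2.10-fold (log2 change 1.07 [1.00, 1.13]). Against day 4 evening, Cdkn1c was 14.2-fold lower away from the embryo (-3.82 [-3.98, -3.69]) and 14.0-fold lower around it (-3.81 [-3.96, -3.67]). The difference between the day 5 sites was 0.02 [-0.18, 0.22], and it became -0.29 with scaling by library totals and -0.26 when Rn45s and Lars2 were left out of those totals. Cdkn1c thus differed by less than 2-fold between the day 5 libraries. The embryo markers without Sox17 summed to 7.29 CPM away and 134 CPM around. What part of the Cdkn1c counts came from embryonic cells was not tested.

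Cdkn1c made up most of what these genes expressed before attachment. Its share of the summed RPKM of all 10 members was 63.1%, 74.0% and 87.2% in the pre-attachment libraries, and 30.2% and 31.2% on day 5. The summed RPKM itself was 84.9, 109 and 194 before attachment, and 39.3 and 38.5 on day 5. Among the 12915 genes kept, Cdkn1c exceeded 96.5% of genes in RPKM on day 4 evening, and 63.8% and 63.2% on day 5. Grb10 took 32.6% of the sum away from the embryo, slightly more than Cdkn1c, and H19 took 13.7% around the embryo against 0.261% away from it.

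Within 500 kb of Cdkn1c lie 22 genes; 16 were kept, and their median change from day 4 evening was 0.27 away and 0.29 around. At the site away from the embryo, 5 of the 16 were called higher and 2 lower; at the site of the embryo, 6 were higher and 2 lower. Of all genes, 12.9% were higher and 12.7% lower in the first of these comparisons, and 19.1% and 20.7% in the second. Among the 6 were Mrgprg, with 0, 0, 0, 0 and 716 counts, and Tnfrsf23, with 12, 3, 2, 31 and 1491. Both passed the filter only through the library around the embryo, so the filter favoured those calls. Kcnq1ot1, the paternal noncoding RNA that silences this domain in cis, had 3128, 4528, 5454, 4369 and 4282 counts. Its changes against day 4 evening were -0.56 [-0.62, -0.50] away and -0.47 [-0.53, -0.41] around, within 2-fold in both.

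The maternally expressed genes on the other side differed among themselves. Slc22a18, a transporter gene 12705 bases further on, had 110 counts on day 4 evening, 93 away and 59 around the embryo, with a log2 change of -0.47 away and a change just within 2-fold around. Phlda2, a growth-restraining gene of the placenta, had 10, 62 and 169, which is 2.20 and 3.73. Nap1l4, a histone chaperone, changed by -0.04 and 0.18. The only kept neighbour called lower in both was Mrgpre, with 210, 19 and 29 counts and changes of -3.56 and -2.90. Phlda2, Slc22a18, Mrgpre, Mrgprg and Tnfrsf23 were named after their values were seen.

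**Figure D3:**
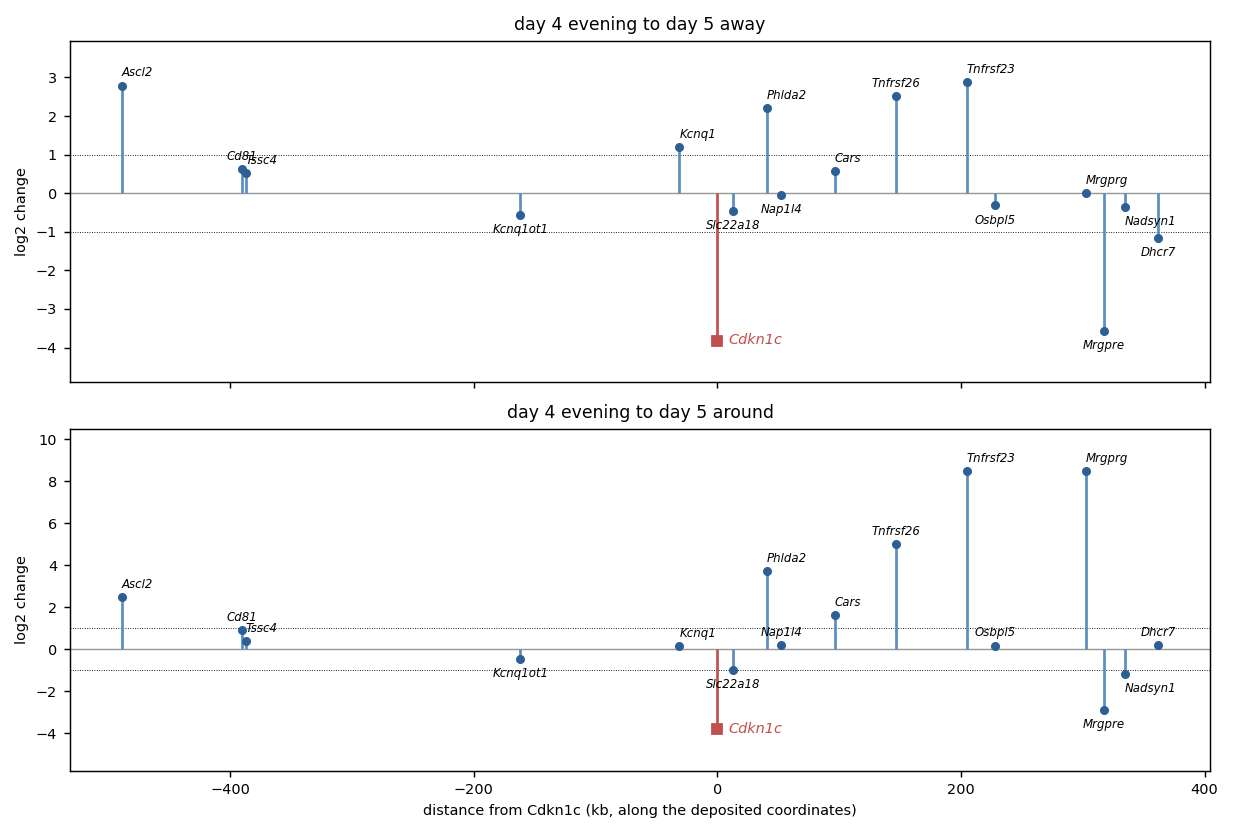
Change from day 4 evening to day 5 of Cdkn1c and of the 16 genes within 500 kb that passed the filter. The x axis is the distance from Cdkn1c in kb and the y axis the log2 change of CPM, away from the embryo (top) and around it (bottom); dotted lines mark 2-fold. Cdkn1c lies at -3.82 and -3.81, while Kcnq1ot1 and Nap1l4 lie within 2-fold in both.

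Plagl1 and Mest are paternally expressed. Plagl1 (chr10:13090788-13131695) encodes a zinc finger transcription factor that regulates other imprinted genes, and it had 557, 465, 241, 213 and 72 counts. Its level was lower at each step, from 32.1 and 25.9 CPM on day 3 and day 4 morning to 15.2 on day 4 evening, and to 11.4 away and 4.18 around the embryo. Only the library around the embryo gave calls. There Plagl1 was 3.64-fold lower than on day 4 evening (log2 change -1.84 [-2.27, -1.48]) and 2.73-fold lower than away from the embryo (-1.43 [-1.86, -1.06]). The intervals of all 5 changes lay below 0.

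Mest (chr6:30733506-30748466), an alpha/beta hydrolase expressed in growing mesodermal tissue, had 125, 399, 295, 208 and 270 counts. Day 3 morning was the lowest, at 7.20 CPM, and day 4 morning the highest, at 22.2 CPM, a 3.09-fold difference (log2 change 1.61 [1.33, 1.93]). Later changes stayed within 2-fold: -0.25 to day 4 evening, then -0.74 away from the embryo and -0.25 around it. Copg2, a maternally expressed gene 61093 bases further on, had 68, 166, 83, 100 and 63 counts.

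Peg3, Dlk1 and Meg3 had few counts, 44 or fewer in every library. Peg3 (chr7:6705960-6730419), a zinc finger protein, had 1, 44, 15, 6 and 0 counts. Its ratio between day 3 and day 4 morning was 42.5-fold with an interval of 2.86 to 10.75 on the log2 scale. Around the embryo Peg3 was 5.44-fold lower than on day 4 evening, with 3 counts in place of the 0. The interval of that log2 ratio reached up to -1.97, so a smaller fold is possible. Of its exon bases, 13.1% overlap the antisense Peg3as. Peg3 thus had no counts in the library where Igf2 and H19 were highest.

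Dlk1, a membrane protein related to Notch ligands, and Meg3, a noncoding RNA, lie 77659 bases apart on chromosome 12 (chr12:109452823-109463336 and chr12:109540996-109571729) and are expressed from opposite parental alleles. Dlk1 had 0, 0, 2, 2 and 4 counts, so no difference was detectable at this depth. Meg3 had 14, 7, 10, 0 and 19. It was 3.93-fold lower away from the embryo than on day 4 evening, and 6.86-fold higher around the embryo than away from it. Both folds are set against 3 counts in the library at 0. The intervals of the log2 ratios reached up to -1.40 for the first and down to 2.34 for the second, so smaller folds are possible. Within 500 kb, 70 other features surround Dlk1, of which 1 passed the filter, and 69 surround Meg3, of which none did.

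The calls of the 7 members that passed the filter are given beside the share of all 12915 genes called in the same direction. From day 3 to day 4 morning, 3 members were higher (H19, Igf2 and Mest) and none lower, while 7.47% of all genes were higher and 11.5% lower. From day 4 morning to evening, 1 was higher (Cdkn1c) and none lower, against 7.21% and 6.95%. From day 4 evening to day 5 away from the embryo, 1 was higher (Igf2r) and 3 lower (H19, Igf2 and Cdkn1c), against 12.9% and 12.7%. Around the embryo, 2 were higher (H19 and Igf2) and 2 lower (Cdkn1c and Plagl1), against 19.1% and 20.7%. Between the day 5 sites, 2 were higher around the embryo (H19 and Igf2) and 2 lower (Igf2r and Plagl1), against 13.4% and 15.0%.

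These members were chosen by their values, so nothing is read from the counts. The median change of the 7 was 0.59, -0.05, -0.74, -0.23 and 0.02 in these 5 comparisons, and that of all genes lay between -0.05 and 0.01. The comparisons share libraries and are not independent. Scaling by library totals changed the split of all genes between the directions. It gave 538 genes higher and 2209 lower from day 3 to day 4 morning, in place of 965 and 1480. The split became 2250 and 1264 away from the embryo (1669 and 1639 with TMM) and 1288 and 2807 between the day 5 sites (1729 and 1932 with TMM). Leaving Rn45s and Lars2 out of the totals gave 773 and 1877 for the first of these and 1367 and 2788 for the last.

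**Figure D4:**
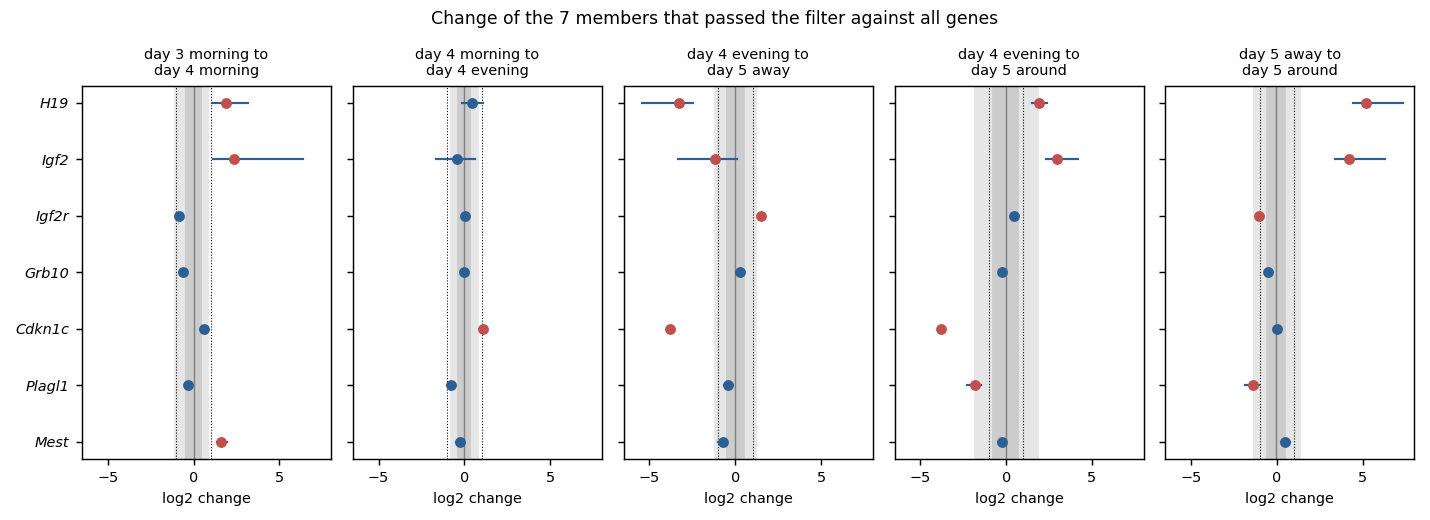
log2 change of the 7 members that passed the filter in each of the 5 comparisons, against the spread of all 12915 genes. Points are members (red beyond 2-fold, blue within), lines are 95% intervals of the count ratio for counting error only, the dark and light bands hold the middle 50% and 80% of all genes, and dotted lines mark 2-fold. H19 reaches 5.19 between the day 5 sites and Cdkn1c -3.82 from day 4 evening to day 5 away.

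Other imprinted genes were taken from lists that were also drawn up with earlier results known. They are called paternally or maternally expressed by list, and the allele used in this tissue was not measured. There were 21 other paternally expressed genes, and 14 were kept. In the 5 comparisons, in the order above, 2, 3, 1, 3 and 4 of the 14 were called higher and 1, 0, 4, 5 and 2 lower. Their median changes were 0.10, 0.39, -0.07, -0.43 and -0.27. The 3 called higher around the embryo against day 4 evening were Slc38a4, Sfmbt2 and Dio3. Each was also called higher there than away from the embryo. All 3 passed the filter only through the library around the embryo, so the filter favoured those calls. Of 32 maternally expressed genes, 20 passed. The numbers higher were 3, 2, 4, 7 and 3 and the numbers lower 3, 1, 0, 2 and 3, with medians of -0.45, -0.21, 0.55, 0.29 and -0.14. In the same comparisons 7.47%, 7.21%, 12.9%, 19.1% and 13.4% of all genes were higher and 11.5%, 6.95%, 12.7%, 20.7% and 15.0% lower, and their medians lay between -0.05 and 0.01.

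The highest paternally expressed genes per length were Mcts2, Impact and Nnat. Nnat, a small membrane protein of developing neural and endocrine cells, had 158, 97, 496, 107 and 50 counts. It shared the day 4 evening peak of Cdkn1c: it was 5.80-fold higher than on day 4 morning and then 5.47-fold lower away from the embryo and 10.8-fold lower around it. Zrsr1, a splicing factor-related gene, was highest on day 4 evening too, with 191, 290, 360, 102 and 72 counts and log2 changes of -2.03 [-2.39, -1.74] and -2.41 [-2.83, -2.08] to the day 5 libraries. Mcts2 had 575, 654, 645, 337 and 237 counts, and Impact, a regulator of translation, varied little, from 492 to 651. Peg13, a noncoding RNA, was 3.24-fold lower around the embryo than away from it, with 35 against 123 counts.

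Of the genes listed as maternally expressed, Cd81, Commd1 and Nap1l4 were the highest per length. Cd81, a tetraspanin, had 4071 counts on day 3 morning and between 1301 and 2627 in the other libraries. Commd1 ranged from 852 to 1409 counts and Nap1l4 from 1762 to 2175. Atp10a, a phospholipid flippase, was 12.6-fold higher around the embryo than on day 4 evening, with 950 against 69 counts. Ascl2, a transcription factor of trophoblast progenitors, was higher in both day 5 libraries than on day 4 evening, at 323 and 238 against 38 counts. Dcn, a proteoglycan of the stromal matrix, was lower around the embryo only, with 242 counts against 1709 away from it and 1304 on day 4 evening.

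A few further imprinted genes, named after their values were seen, were counted mainly around the embryo, as H19 and Igf2 were. Slc38a4, an amino acid transporter gene of the placenta, had 2, 1, 0, 2 and 127 counts. Sfmbt2, a Polycomb gene expressed in trophoblast, had 0, 0, 8, 0 and 133. Dio3, which inactivates thyroid hormone and lies in the Dlk1 and Meg3 cluster, had 0, 0, 10, 47 and 225. The embryo markers had the same order between the day 5 libraries, and their part in these counts was not tested.

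The Igf pathway beyond the members was followed in 23 genes, and 15 were kept. Around the embryo, against day 4 evening, 8 were called higher and 3 lower, with a median of 1.19. Away from the embryo it was 3 and 4, with a median of 0, and between the day 5 sites 7 and 3, with a median of 0.99. In the pre-attachment steps 2 and 1 were higher, and 1 in each was lower, while 7.47% and 7.21% of all genes were higher and 11.5% and 6.95% lower. The shares of all genes higher and lower were 19.1% and 20.7% around the embryo, 12.9% and 12.7% away from it, and 13.4% and 15.0% between the sites, with all-gene medians between -0.05 and 0.01. Igf2bp1 was called higher in both comparisons with the library around the embryo. It had 0 counts in the other libraries and passed the filter only through this library, so the filter set those calls. The insulin genes Ins1 and Ins2 had 0 counts in all libraries.

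Among the ligands, Igf1, the paralog of Igf2, ran opposite to it around the embryo. Igf1 had 1048, 2501, 2176, 431 and 145 counts, and it was 5.95-fold lower away from the embryo than on day 4 evening (log2 change -2.57 [-2.73, -2.42]) and 16.3-fold lower around it (-4.01 [-4.28, -3.79]). Its receptor Igf1r, which also binds Igf2, was highest away from the embryo, with 635, 1107, 922, 3582 and 2300 counts. In that it resembled Igf2r, with changes from day 4 evening of 1.72 away and 1.19 around, against 1.49 and 0.47 for Igf2r. The insulin receptor gene Insr had 265, 432, 465, 726 and 366 counts, also highest away from the embryo. The receptor substrate Irs1 had 2244, 1625, 751, 540 and 89 counts. Ins1, Igf1r, Insr and Irs1 were named outside the naming rule described with the processing.

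The binding proteins Igfbp3, Igfbp4 and Igfbp7 had the highest levels per length. Igfbp3, which binds Igf1 and Igf2 in the extracellular space, had 195, 382, 1878, 29605 and 54349 counts and was 13.4-fold higher away from the embryo and 26.6-fold higher around it than on day 4 evening. Igfbp4 had 1834, 1235, 1573, 1516 and 6962 counts, a log2 change of 2.31 [2.23, 2.40] between the day 5 sites. Igfbp7, a related secreted protein, was 2.06-fold lower around the embryo than away from it. Stc1, a stanniocalcin that inhibits the protease that frees Igf from Igfbp4, had 2002, 2662, 379, 30 and 2348 counts. It was 14.9-fold lower away from the embryo than on day 4 evening and 5.69-fold higher around it. Pappa, that protease, had 50, 90 and 70 counts before attachment and 0 in both day 5 libraries, at least 27.5-fold lower away and at least 25.4-fold lower around. Igf2bp1, an RNA-binding protein of embryonic tissues that binds Igf2 mRNA, had 0 counts in 4 libraries and 160 around the embryo. Pappa and Igf2bp1 were named after their values were seen.

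**Figure D5:**
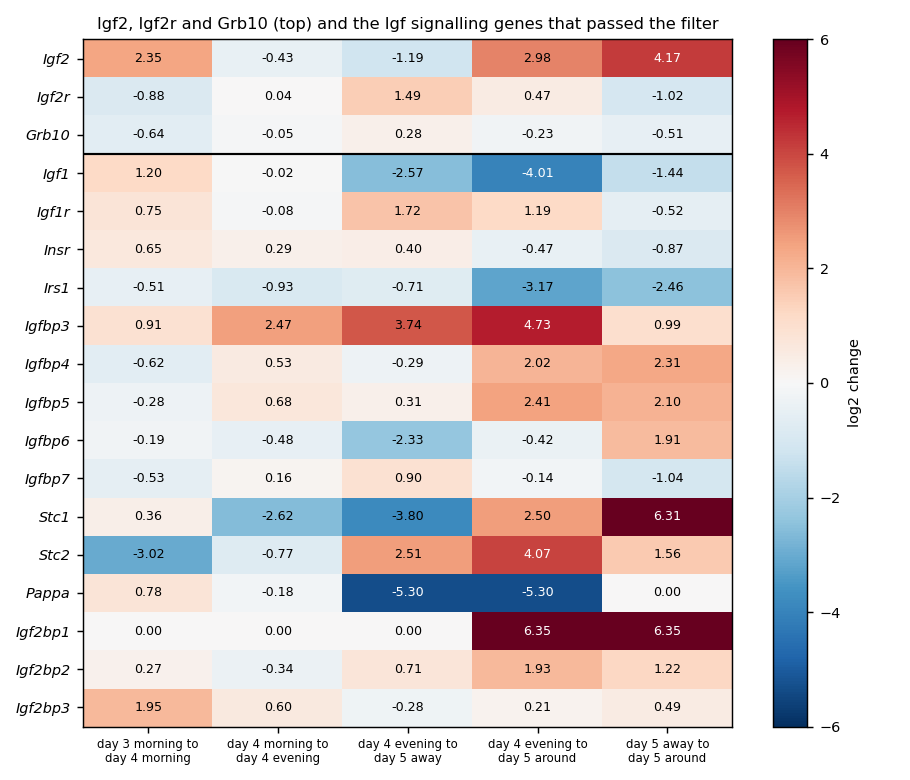
log2 change of Igf2, Igf2r and Grb10 (above the line) and of the 15 Igf pathway genes that passed the filter (below it) in the 5 comparisons. Colour and printed numbers are log2 changes of CPM with a prior count of 2, capped in colour at 6 in either direction; values against a library at 0, as for Pappa and Igf2bp1, depend on the prior count. Igf2 and Igf1 stand at 2.98 and -4.01 from day 4 evening to day 5 around the embryo.

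Close relatives that are not imprinted were followed alongside. Cdkn1a (p21), of the same inhibitor family as Cdkn1c, had 329, 52, 67, 151 and 3498 counts, so that it was 48.0-fold higher around the embryo than on day 4 evening (log2 change 5.55 [5.24, 5.95]), where Cdkn1c was 14.0-fold lower. Away from the embryo it changed by 0.92 [0.51, 1.37]. Cdkn1b (p27), the third family member, had 434, 579, 437, 594 and 378 counts and gave no call. M6pr, the small mannose 6-phosphate receptor that does not bind Igf2, had 5131, 4035, 4890, 8714 and 9289 counts. Unlike Igf2r, it did not differ by 2-fold in any comparison, and around the embryo it was 1.15-fold higher than away from it.

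Of the other relatives, Grb7 had 826, 1100, 965, 2107 and 1601 counts and Plagl2 had 536, 468, 402, 481 and 531, neither with a call. Grb14, Plag1 and Dlk2 did not pass the filter. Grb14 had 17, 4, 12, 45 and 1 counts, Plag1 had 0 to 6, and Dlk2 had 11 counts around the embryo and 0 in the other libraries. Over the 5 relatives that passed, 1 was called lower from day 3 to day 4 morning (Cdkn1a) and 1 higher in each comparison with the library around the embryo (Cdkn1a). Of all genes, 11.5% were lower from day 3 to day 4 morning. Around the embryo, 19.1% were higher than on day 4 evening and 13.4% higher than away from it.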

How the data were processed

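RNA was extracted with a NucleoSpin kit, amplified with SMART-seq v.4 and sequenced from laser-microdissected luminal layers. Per the paper's methods and the labels, the authors aligned paired-end reads to GRCm38/mm10 with HISAT2 and counted them with featureCounts (Subread 2.0.0). They deposited 1 table of raw counts per gene, with coordinates and gene lengths and with no normalization. The annotation, strand setting, handling of multi-mapped reads and pooling of animals are not given in the sources used here for these libraries. Reads shared by overlapping or near-identical genes may therefore be assigned unevenly.

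Samples were grouped by their titles. The imprinted growth genes and all gene lists were chosen with earlier results of these data known. Counts were scaled by TMM (edgeR 4.0.16, R 4.3.3). The filter was a mean CPM of 1 or more over the 5 libraries, log2 CPM carried a prior count of 2, and a difference beyond 1 was a call, as in the fold part of the rule the authors used. Their false discovery rate was not used, since 1 library per condition gives no dispersion. Ratios carry 95% Clopper-Pearson intervals and single levels Poisson intervals (scipy 1.17.1, pandas 2.3.3, numpy 2.4.6, Python 3.11.15, matplotlib 3.10.9). Folds against a library at 0 use a floor of 3 counts there and leave out counting error in the other library. Alternatives were DESeq2 1.42.0 size factors, library totals with and without Rn45s and Lars2, a prior count of 0.5, no filter, a mean of at least 5 CPM and edgeR's exact test with the dispersion set to 0.1. The omission of the library around the embryo was added after the data had been seen. Named were all members, all relatives, and from each other list the 3 highest genes per length and the 3 with the largest change, at a mean of at least 5 CPM. Genes named outside this rule are marked as such or serve as cell markers or neighbours. Gene positions are the coordinates deposited with the counts, on GRCm38, and sequences are from RefSeq. From the list of epithelial markers, 1 gene is not reported here.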

Additional observations from a re-analysis of the deposited data

Results flagged for a closer look

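Among the genes described that passed the filter, H19, Igf2, Stc1, Sfmbt2 and the embryo markers Elf5 and Dppa3 moved in opposite directions from day 4 evening to the day 5 sites, each by more than 1 on the log2 scale. H19 changed by -3.28 away from the embryo and by 1.91 around it, Igf2 by -1.19 and 2.98, and Stc1 by -3.80 and 2.50. Sfmbt2 changed by -2.43 and 3.66, on 8, 0 and 133 counts. Sfmbt2, Igf2 and Dppa3 passed the filter only through the library around the embryo. Elf5 changed by -2.94 and 1.89, and Dppa3 by -1.13 and 4.18, the first of these on 4 and 1 counts. The difference between the sites was not tested, since each site has 1 library, and both comparisons share the day 4 evening library. For Igf2 and Dppa3, the interval of the change away from the embryo contained 0.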

How the results depend on the processing

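The number of members called changed with the filter and with the way of calling. With a mean of at least 5 CPM, H19 and Igf2 were not tested, and the number called was 1 from day 3 to day 4 morning and 2 in each of the 3 comparisons with a day 5 library. Of all 10398 genes at that mean, 566 were higher and 872 lower in the first of these. In the comparisons with a day 5 library, 1144, 1778 and 1172 were higher and 1143, 1885 and 1264 lower. Without a filter the number of members called was 3 from day 4 morning to evening, with Dlk1 and Peg3 added. In that step 1932 of all 23420 genes were higher and 1653 lower. Under edgeR's exact test, with the dispersion set to 0.1, the number of members was 0 in both pre-attachment steps. It was 2 from day 4 evening to day 5 away (H19 and Cdkn1c) and 2 between the day 5 sites (H19 and Igf2). In the same comparisons, 93, 158, 533 and 795 of all 12915 genes were higher and 383, 83, 544 and 605 lower. That dispersion was set by hand and cannot be estimated here. DESeq2 size factors ended the call of Igf2r between the day 5 sites, and library totals added that of Igf2r from day 3 to day 4 morning. With library totals, the median change of all genes reached -0.36 between the day 5 sites, from -0.05, and members moved by up to 0.31. Without the library around the embryo, Igf2 was not tested, and the calls numbered 2, 1 and 3 in the 3 comparisons that do not use it. Of all 12743 genes kept then, 943, 860 and 1595 were higher and 1408, 880 and 1624 lower. No called change turned its direction under any of these scalings or the prior count of 0.5. No paired analysis was possible because each condition has 1 library. Depth limits Dlk1, Meg3, Peg3, Igf2 and H19 most, since their counts reached 0 to 5 in at least 1 library.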
